A study of Mus musculus with 4 samples.

Results

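The genes that load peptides onto major histocompatibility complex (MHC) class II molecules were followed in liver and spleen of mice on 2 diets. The set held 10 genes (H2-Aa, H2-Ab1, H2-Eb1, Cd74, Ciita, H2-DMa, H2-DMb1, H2-Oa, H2-Ob and Ctss) out of 27670 genes on the array. They were found by gene name, by RefSeq accession or by an older alias (Ciita is listed as C2ta), which gave 15 of 41174 probes and 24 spots. Male C57BL/6J mice aged 7 weeks ate either a purified diet low in nucleoprotein with 0.03% nucleic acids (control) or that diet with 1.2% of a nucleoprotein product added, and the resulting diet held 0.5% nucleic acids. After 4 weeks all mice received 1 dose of lipopolysaccharide (LPS), a bacterial cell wall component that triggers inflammation, of 10 mg/kg, and liver and spleen were collected 6 h later. No mice without LPS were analysed here, and the housing notes name a standard chow where the design names the purified diet. RNA of the mice of a diet was pooled, and each of 4 arrays compared the control and nucleoprotein pools of its organ in 2 colours. Array 1 of an organ had the nucleoprotein pool in Cy5 (red) and array 2 had it in Cy3 (green). The 2 arrays of an organ were read as a dye swap of the same pools, which the labels leave unclear, so each organ counts as 1 replicate and no diet difference has a replicate check or a test. The SD of a ratio is taken over these 2 arrays, covers labelling and array error, and holds any dye effect of the gene.

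Class II molecules are pairs of an alpha and a beta chain that carry peptides from endosomes to the surface of antigen-presenting cells, where CD4 T cells read them. The invariant chain Cd74 holds the groove closed on the way to the endosome, the protease Ctss trims it there, H2-DM exchanges its last fragment for peptides, and H2-O restrains H2-DM. Ciita is the coactivator that switches on the class II chain genes and Cd74, by binding proteins that sit on a conserved X and Y box just upstream of them. In spleen they are known above all from B cells and dendritic cells, and in liver from Kupffer cells, dendritic cells and endothelium.

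The probes for the H2 chains matter here because these genes are close relatives. Probes were assigned to genes by their listed names or accessions. Their sequences were not matched to a genome or to transcripts, so signal from a related gene was not tested. The probes are 60 bases long, and the sequences below were taken from the scanner files. H2-Aa is read by a probe at chr17:32362310-32362369 (mouse build mm7, as for all probe positions) and by another without a listed position. H2-Eb1 is read by a probe whose listed span, chr17:32392430-32392891, is longer than the probe, so that it joins separate stretches of the genome. The spans listed below for H2-DMa (564 bases) and H2-Ob (232 bases) are likewise longer than their probes. H2-Ab1 has 4 probes. One of these (A_51_P215242, chr17:32342603-32342662) shares an overlap of 31 bases with another (A_52_P570717), in which they differ at 2 bases, T5A and T20A, counted from the 5′ end of the former and shown as capitals. The latter has no listed position and lacks the RefSeq entry that the other printed H2-Ab1 probes list, so its assignment to H2-Ab1 is less sure. The probe named for H2-DMb2 (chr17:32228917-32228976) also lists the accession of H2-DMb1, so its signal cannot be assigned to H2-DMb2 alone. H2-Ea, which encodes an alpha chain that C57BL/6 mice are known not to express, is shown as the chain expected to be silent.
H2-Aa, A_52_P343306: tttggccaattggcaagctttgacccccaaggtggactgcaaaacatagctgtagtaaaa
H2-Aa, A_51_P119760: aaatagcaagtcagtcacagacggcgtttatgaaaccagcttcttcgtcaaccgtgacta
H2-Ab1, A_51_P215242: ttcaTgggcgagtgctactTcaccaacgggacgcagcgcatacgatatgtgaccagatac
H2-Ab1, A_52_P570717: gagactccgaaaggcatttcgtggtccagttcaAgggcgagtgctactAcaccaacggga
H2-Ab1, A_51_P215237: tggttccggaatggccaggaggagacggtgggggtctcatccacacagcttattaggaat
H2-Eb1, A_51_P393226: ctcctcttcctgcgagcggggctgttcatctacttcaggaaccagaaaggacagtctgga
H2-DMb2 (also lists H2-DMb1), A_52_P146877: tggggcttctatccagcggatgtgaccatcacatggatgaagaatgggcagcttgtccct
H2-Ea, A_51_P222741: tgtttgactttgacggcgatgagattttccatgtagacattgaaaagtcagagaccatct

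The other members were read at chr17:32346939-32346998 (H2-Ab1, its brightest probe), chr16:10203747-10203806 (Ciita), chr17:32217439-32218002 (H2-DMa), chr17:32236685-32236744 (H2-DMb1), chr17:32174944-32175003 (H2-Oa), chr17:32321710-32321941 (H2-Ob) and chr3:95430189-95430248 (Ctss). Apart from Ctss, Ciita and Cd74, the members thus lie within 1 stretch of chromosome 17, the mouse MHC. An exon annotation of this build was not used here.

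Because the members were high in the same organ, the stretch before their start sites was searched for the letters of the boxes that Ciita's partners read. RefSeq promoter windows (GRCm38.p6) were matched for 7 of the 10 members, and H2-Ab1, Cd74 and Ciita had no entry. The Y box core GATTGG, searched on both strands, was found in the 250 bases before the start of 6 of these 7 genes, and in 14.6% of all 32851 windows of 250 bases. The 7 genes had 8 windows, because H2-DMa had 2. Of the 2 H2-DMa windows, 1 had 0 matches and 1 held the core 199 bases before its start. The Ctss window also had 0 matches of this core. Counts of members are by gene and the shares of all windows are by window, so they are not a like comparison. In 5 of the 7 genes the core lay within the last 150 bases, beginning 49 bases before the start in H2-Aa, 60 in H2-Eb1, 62 in H2-DMb1, 44 in H2-Oa and 58 in H2-Ob. The letters CNNATGATG, part of the X box and chosen after these windows were read, were found in 3 of the 7 genes and in 2.31% of all windows. In H2-Eb1, H2-DMb1 and H2-Ob they came before the Y box core on the same strand, with 18, 19 and 16 bases between them, and the motifs did not overlap. GAAANNGAA, a core of the element read by interferon response factors, was found in Ctss, 21 bases before its start, and in 7.13% of all windows. Among class II genes outside the set, the Y box core was also found in H2-DMb2, 91 bases before its start, and in H2-Eb2, 101 bases before. H2-DMb2 had the X box letters too, with 19 bases between them and the core. H2-Eb2 was well above background in only 3 of 4 spleen channels, so the core was not particular to the members or to bright genes. A match is a string of letters and not a shown binding site. The last 150 bases before the start are printed for 5 members that carry a match, with matches in capitals (CCAATC is the Y box core on the other strand).
H2-Aa, chr17:34287824-34287973, minus strand: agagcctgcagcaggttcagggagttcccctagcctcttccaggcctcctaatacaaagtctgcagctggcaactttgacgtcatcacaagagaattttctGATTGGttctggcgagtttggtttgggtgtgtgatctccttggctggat
H2-Eb1, chr17:34305717-34305866, plus strand: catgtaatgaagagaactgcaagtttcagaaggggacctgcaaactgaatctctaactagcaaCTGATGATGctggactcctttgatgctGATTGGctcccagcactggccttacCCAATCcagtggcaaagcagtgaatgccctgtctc
H2-DMb1, chr17:34153041-34153190, plus strand: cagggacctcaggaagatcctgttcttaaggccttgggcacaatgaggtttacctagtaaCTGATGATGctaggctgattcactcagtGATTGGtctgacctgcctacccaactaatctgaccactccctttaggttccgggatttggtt
H2-Ob, chr17:34238755-34238904, plus strand: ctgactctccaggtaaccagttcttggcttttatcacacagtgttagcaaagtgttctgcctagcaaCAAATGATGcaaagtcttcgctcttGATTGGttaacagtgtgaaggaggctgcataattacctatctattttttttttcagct
Ctss, chr3:95526636-95526785, plus strand: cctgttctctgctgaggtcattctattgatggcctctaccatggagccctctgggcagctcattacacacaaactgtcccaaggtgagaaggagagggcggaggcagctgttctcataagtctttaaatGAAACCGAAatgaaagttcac

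On the 4 arrays, the share of gene spots well above background was 55.2% to 66.8% in green and 66.5% to 72.8% in red, and 0 gene spots were saturated. The organs' labels held: 10 of 10 hepatocyte markers were brighter on the liver arrays and 9 of 9 measurable B cell markers on the spleen arrays, by the bound given next. Markers of 2 other tissues differed between the diets, and their values stand beside the diet results below.

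All 10 members were far brighter in spleen than in liver, on both diets and in both dyes. An organ difference was called when the spleen level, as log2 intensity of a channel, was at least 1 unit (2-fold) above the liver level in all 4 comparisons matched for diet and dye. By this bound 17.2% of the 17854 measurable genes were higher in spleen and 13.3% higher in liver. All 15 probes of the members passed it towards spleen, and for all 10 genes the lowest of the 4 spleen channels was above the highest of the 4 liver channels. The median difference of the members was 3.66 log2 units, against 0.12 for all measurable genes, and single members lay between 2.28 and 3.99. The size for a single member depended on the processing: with Feature Extraction's processed signals, scaled to each channel's 75th percentile, in place of the normexp values, the difference became 6.14 for H2-Oa, 4.52 for H2-Ob, 3.76 for H2-DMa, 2.97 for Cd74, 2.80 for H2-Ab1 and 2.06 for Ctss, and every member still passed the bound. The order of the members by organ difference is therefore not firm. In these bulk organs, more cells with class II and more RNA in each such cell cannot be told apart.

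**Figure D1:**
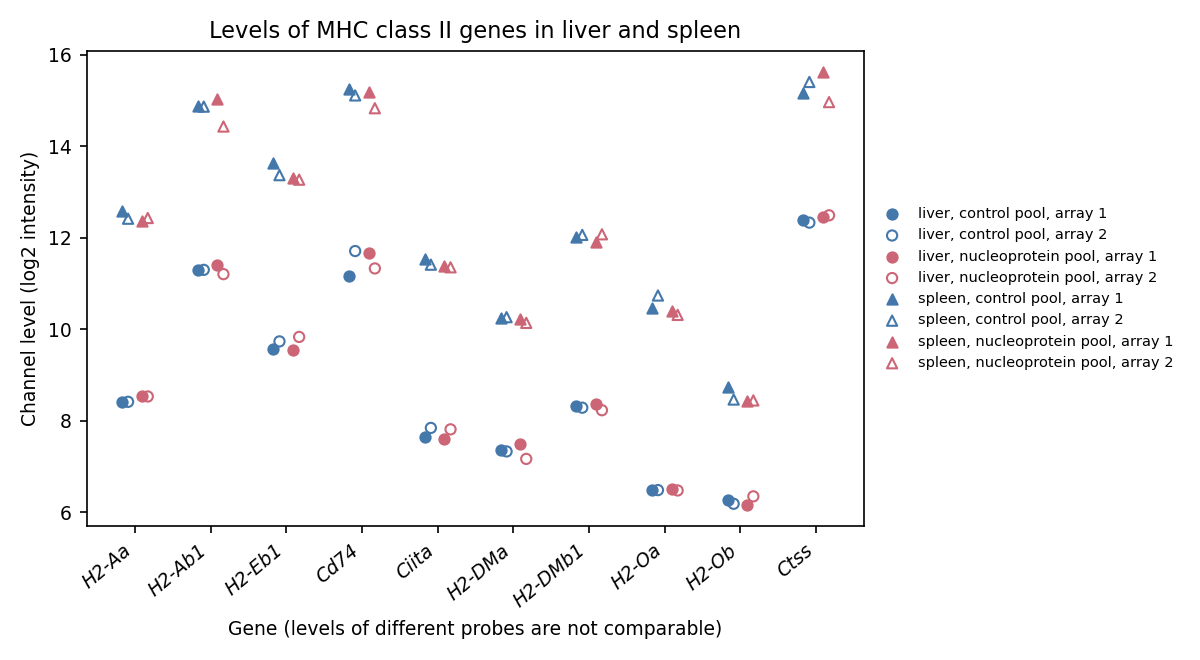
Channel levels (log2 intensity, vertical axis) of the brightest probe of each member gene (horizontal axis) in the liver (circles) and spleen (triangles), with the control pools in blue, the nucleoprotein pools in red, array 1 filled and array 2 open. The spleen channels of each gene lie above all its liver channels, by a mean of 2.28 (H2-Ob) to 3.99 (H2-Oa) log2 units, while the diets overlap or lie close together within an organ.

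The classical chains, which form the surface molecules, came first. H2-Aa, the alpha chain of the I-A molecule, was at 8.41 on both arrays in the control liver pool and at 8.55 and 8.53 (arrays 1 and 2) in the nucleoprotein liver pool. In spleen it was at 12.58 and 12.42 on the control diet and at 12.36 and 12.43 on the nucleoprotein diet. The spleen channels were thus all above the liver channels, and spleen exceeded liver by 3.97 ± 0.15 log2 units (SD of the 4 matched comparisons), which is 15.7-fold. For every member these comparisons come from the same arrays and pools, so this SD is not a spread over independent replicates. The H2-Aa diet ratio, log2 of nucleoprotein over control, was 0.14 and 0.12 in liver (0.13 ± 0.02) and -0.21 and 0.01 in spleen (-0.10 ± 0.16). The other H2-Aa probe gave 14.9-fold between the organs and diet ratios of 0.11 and 0.19 in liver and -0.14 and -0.10 in spleen.

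H2-Ab1 encodes the beta chain that pairs with H2-Aa. Its brightest probe was at 11.30 and 11.30 in control liver, 11.41 and 11.20 in nucleoprotein liver, 14.87 and 14.87 in control spleen, and 15.02 and 14.43 in nucleoprotein spleen. The organs were apart by 3.50 ± 0.18, or 11.3-fold, and the other 3 probes gave 14.7-, 15.3- and, for A_52_P570717, 11.3-fold. The diet ratio of the brightest probe had opposite signs on the 2 arrays of each organ, at 0.11 and -0.09 in liver and at 0.15 and -0.43 in spleen. In spleen the means of the 4 H2-Ab1 probes were alike, at -0.14, -0.08, -0.08 and -0.08, although their single arrays ranged from -0.43 to 0.19.

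One of these probes (A_51_P215237) is printed on 10 spots of each array, which shows how the errors compare. In spleen its ratio was -0.36 with an SD of 0.03 over 10 spots of array 1, and 0.19 with an SD of 0.09 over 9 spots of array 2. In liver it was -0.11 with an SD of 0.04 over 8 spots and 0.22 with an SD of 0.05 over 10 spots. In each organ the 2 arrays were therefore much farther apart than the spots of an array, and on opposite sides of 0. The mean of both arrays was 0.05 ± 0.24 in liver and -0.08 ± 0.39 in spleen.

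H2-Eb1 encodes the beta chain of the I-E molecule. It was at 9.57 and 9.73 in control liver, 9.55 and 9.83 in nucleoprotein liver, 13.64 and 13.37 in control spleen, and 13.32 and 13.27 in nucleoprotein spleen. In spleen both nucleoprotein channels were thus below both control channels, while in liver they overlapped. Its organ difference was 3.73 ± 0.27, or 13.2-fold, and its diet ratio was -0.33 and -0.10 in spleen (-0.21 ± 0.16) and -0.03 and 0.10 in liver (0.04 ± 0.09). H2-Ea, the alpha chain partner of H2-Eb1, was well above background in 0 of 8 channels, with levels of 5.93 to 6.00 in liver and 5.94 to 6.00 in spleen, so no organ fold can be given for it.

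Cd74, the invariant chain, was at 11.16 and 11.71 in control liver, 11.67 and 11.33 in nucleoprotein liver, 15.25 and 15.11 in control spleen, and 15.20 and 14.83 in nucleoprotein spleen. It was 12.4-fold higher in spleen (3.63 ± 0.31 log2 units). Its liver diet ratio was 0.51 on array 1 and -0.38 on array 2, the widest disagreement of any member in liver, and the mean was 0.06 ± 0.63. In spleen it was -0.05 and -0.28 (-0.17 ± 0.16), below 0 on both arrays.

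Ctss, the protease that trims Cd74, was at 12.38 and 12.33 in control liver, 12.46 and 12.49 in nucleoprotein liver, 15.17 and 15.41 in control spleen, and 15.62 and 14.97 in nucleoprotein spleen. Spleen was 7.33-fold above liver (2.87 ± 0.31). In liver both nucleoprotein channels lay above both control channels, with ratios of 0.07 and 0.16 (0.11 ± 0.06). In spleen the ratios were 0.45 and -0.44, equal in size and opposite in sign, so the mean of 0.00 ± 0.63 gives no direction.

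H2-DMa and H2-DMb1 encode the chains of the peptide exchange factor H2-DM. H2-DMa was at 7.35 and 7.33 in control liver, 7.49 and 7.17 in nucleoprotein liver, 10.25 and 10.26 in control spleen, and 10.22 and 10.14 in nucleoprotein spleen. H2-DMb1 was at 8.32 and 8.29, then 8.37 and 8.23, then 12.01 and 12.06, then 11.91 and 12.08 in the same order of pools. Spleen exceeded liver by 7.37-fold (2.88 ± 0.11) for H2-DMa and 13.1-fold (3.71 ± 0.13) for H2-DMb1. By diet the channels overlapped in both organs for H2-DMb1 and in liver for H2-DMa, whose nucleoprotein channels in spleen were both below the control channels. H2-DMa had diet ratios of 0.14 and -0.16 in liver and -0.03 and -0.12 in spleen. H2-DMb1 had 0.04 and -0.06 in liver and -0.10 and 0.01 in spleen.

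H2-DMb2, a neighbouring copy of H2-DMb1 and no member, was 10.4-fold higher in spleen by the shared probe printed above. Its other probe was not well above background in any liver channel and was at least 7.05-fold higher in spleen, where the bound sets the spleen mean against the dimmest signal that still counted as well above background. H2-Eb2, a further beta chain gene, was well above background in 0 of 4 liver channels and 3 of 4 spleen channels.

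H2-Oa and H2-Ob encode the chains of H2-O, the modulator of H2-DM that is best known from B cells. H2-Oa was at 6.49 and 6.48 in control liver, 6.51 and 6.48 in nucleoprotein liver, 10.47 and 10.74 in control spleen, and 10.41 and 10.31 in nucleoprotein spleen. H2-Ob was at 6.26 and 6.19, then 6.16 and 6.35, then 8.73 and 8.46, then 8.43 and 8.44 in the same order. Each was well above background in 2 of 4 liver channels, so their liver ratios were not read, and in all 4 spleen channels.

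As measured, H2-Oa differed between the organs by 3.99 ± 0.18 or 15.9-fold and H2-Ob by 2.28 ± 0.15 or 4.86-fold. With liver values this near background, neither size is firm. In spleen the diet ratio of H2-Oa was -0.06 and -0.42 (-0.24 ± 0.26), and the other probe of H2-Oa gave -0.23 and -0.34 (-0.28 ± 0.08). For H2-Ob it was -0.30 and -0.02 (-0.16 ± 0.20). All 6 of these values are below 0, and the arrays of each brightest probe differ by more than the size of their mean.

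Ciita, the coactivator of class II genes, was at 7.64 and 7.84 in control liver, 7.60 and 7.81 in nucleoprotein liver, 11.53 and 11.41 in control spleen, and 11.38 and 11.35 in nucleoprotein spleen. It was 12.9-fold higher in spleen (3.69 ± 0.17 log2 units), close to the members' median of 3.66. Its diet ratio was below 0 on both arrays of both organs, at -0.04 and -0.03 in liver (-0.03 ± 0.005) and at -0.15 and -0.06 in spleen (-0.11 ± 0.07). The sign in liver depended on the processing, as the liver mean was 0.004 with the deposited log ratios and 0.008 with the deposited value table. In spleen the mean was -0.10 with either of these.

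**Figure D2:**
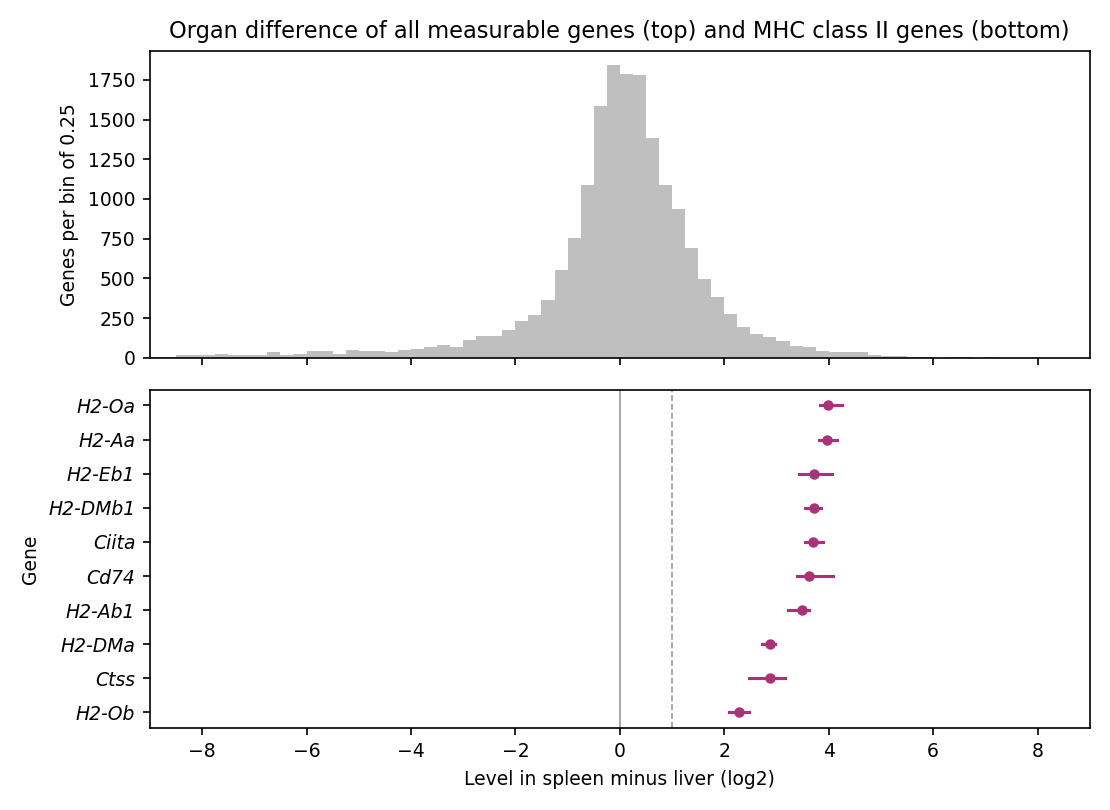
The upper panel counts all measurable genes by the level in spleen minus liver (log2 units, bins of 0.25), and the lower panel gives the mean (points) and the range of the 4 matched comparisons (lines) for each member. All members lie to the right of the dashed 1-unit bound, with a median of 3.66 against 0.12 for all genes.

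No member reached the bound for a diet difference, which required each array of the organ to show a ratio beyond 1.5-fold (0.585 log2 units), both to the same side. It was passed by 0 of the 8 members measurable in liver and 0 of the 10 in spleen. Only genes measurable in the organ were counted, those whose probe Feature Extraction called well above background in 1 or both diets on array 1 and on array 2 alike. Of all measurable genes 0.329% passed the bound in liver (54 of 16413) and 0.436% in spleen (79 of 18139), so a count of 0 among 10 genes is near the background. By direction the shares were 0.0122% higher and 0.317% lower in liver, and 0.209% higher and 0.226% lower in spleen. No member passed it on a single array of either organ.

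In spleen most members had small diet ratios below 0. The means of 9 of 10 were below 0, as were those of 9107 of all 18139 measurable genes. The members' means ran from -0.24 (H2-Oa) to 0.00 (Ctss). On both arrays 6 of 10 were below 0 (H2-Eb1, Cd74, Ciita, H2-DMa, H2-Oa and H2-Ob), as were 19.8% of all measurable genes. No member was above 0 on both arrays, as were 20.4% of all genes. The members' median was -0.12 (-0.08 on array 1 and -0.11 on array 2), against -0.00 for all genes, so the shift is of the order of 0.1 log2 units. For 4 of the 10 the mean was farther from 0 than the SD of the 2 arrays. Since the members share cells and pools, these signs are not independent of each other.

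In liver the signs were mixed. Of the 8 measurable members, 1 was below 0 on both arrays (Ciita), beside 13.6% of all genes, and 2 were above 0 on both (H2-Aa and Ctss), beside 20.5%. The members' median was 0.02, with 0.09 on array 1 and -0.04 on array 2, and that of all genes was 0.01. Opposite signs on the 2 arrays were seen for 8 of the 12 measurable probes in liver and for 5 of 15 in spleen.

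**Figure D3:**
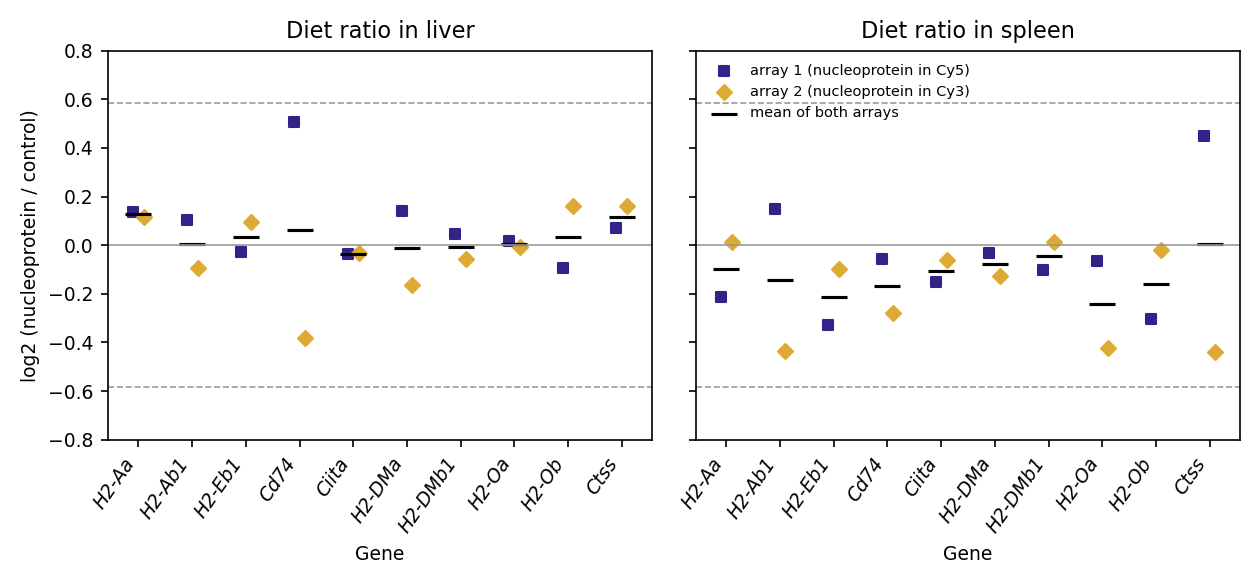
Diet ratio (log2 of nucleoprotein over control, vertical axis) of each member in liver and spleen on array 1 (squares), array 2 (diamonds) and as their mean (bars), with dashed lines at 1.5-fold. No point passes a dashed line, and in spleen 9 of 10 means are below 0, as are those of 9107 of all 18139 measurable genes.

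Set side by side, the diet ratio was lower in spleen than in liver in both dye orientations for 3 of the 8 members measurable in both organs (H2-Aa, H2-Eb1 and Ciita), and for 24.3% of all such genes. For H2-Eb1 the ratio in spleen minus that in liver was -0.30 on array 1 and -0.20 on array 2, and for H2-Aa -0.35 and -0.10. Put the other way, the spleen over liver fold was larger on the control diet for 8 of these 8 members, as it was for 56% of genes measurable in both organs. For H2-Aa it was 17.0-fold on the control diet and 14.5-fold on the nucleoprotein diet, and for Ciita 13.3-fold and 12.6-fold. These are the same values as the diet ratios in another form, and the difference between organs was not tested.

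The order of the pools was therefore the same for each member as far as the organs go, with both spleen pools above both liver pools. Within an organ the order of the diets did not hold beyond the spread of the arrays for most members. In spleen, H2-Eb1, Cd74, Ciita, H2-DMa, H2-Oa and H2-Ob had the nucleoprotein pool below the control pool on both arrays, and the other 4 members did not.

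The other genes of class II presentation shared the organ difference in part. The counts of the lists that follow stand beside 17.2% of all measurable genes higher in spleen by the bound and 13.3% higher in liver. In a list of 10 genes of endosomal processing (proteases, a thiol reductase and the protease inhibitor Cst3), 3 were higher in spleen by the bound and 1 in liver, with a median of 0.61. The reductase Ifi30 was 4.01 log2 units higher in spleen, the aspartic protease Napsa 4.96 and the asparaginyl protease Lgmn 1.15, while the cathepsin Ctsl was at -1.99. None of the 10 passed the diet bound in either organ. The largest ratios were -0.34 and -0.05 for Ctsd and 0.17 and 0.13 for Lgmn in liver, and -0.60 and 0.19 for Ctsd and -0.19 and -0.14 for Ctsh in spleen.

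The proteins that hold Ciita on the DNA were much less organ-dependent than Ciita. Of 6 measurable genes for RFX, NF-Y and CREB, 1 was higher in spleen (Creb1, by 1.60), near the share of 17.2% of all genes, and their median difference was 0.11. Nfya, a further subunit of the Y box factor, differed by 1.02 (0.97 to 1.07) and just missed the bound. Rfx5, a subunit of the X box factor, differed by 0.42, and Nfyc, a subunit of the Y box factor, by -0.21. None of the 7 in liver or 6 in spleen passed the diet bound, and their median ratio was 0.05 in both organs. The largest in liver were Creb1 (0.06 and 0.12) and Nfyc (0.22 and -0.04), and in spleen Rfxap (0.20 and -0.08) and Rfx5 (-0.02 and 0.13).

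Of 14 genes known to induce or repress Ciita, 6 were higher in spleen and 0 in liver, with a median of 1.07. They were Ifng (4.20), the cytokine that induces Ciita in many cells, its receptor chain Ifngr1 (2.25), the interleukin receptor Il10ra (4.08), and the transcription factors Irf8 (2.78), Prdm1 (2.13) and Irf4, which was well above background in 0 of 4 liver channels and at least 12.3-fold higher in spleen. By diet none of 13 in liver and 14 in spleen passed the bound. Ifng had ratios of -0.16 and -0.23 in spleen and -0.05 and 0.26 in liver, the myeloid and B cell factor Spi1 -0.33 and -0.08 in spleen, and the kinase Jak1 0.30 and 0.04 in liver.

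Of the genes for turnover of surface class II, the ubiquitin ligase Marchf1 was 2.65 higher in spleen and Cd83, which opposes it, 5.04 higher, while the related ligase Marchf8 was at -1.49. Cd83 had diet ratios of 0.23 and 0.21 in liver and 0.28 and -0.00 in spleen, and Marchf1 had 0.14 and 0.05 and then -0.08 and 0.01. Of 7 co-stimulatory ligands, which T cells need beside the peptide, 6 were higher in spleen, with a median of 2.61. Their largest diet ratios in spleen were 0.18 and 0.21 for Cd80 and 0.10 and 0.10 for Cd86. These were the 2 of the 7 above 0 on both arrays, as were 20.4% of all genes, and the median of the 7 was 0.02. In liver the largest ratios were 0.03 and 0.07 for Icosl and 0.15 and -0.23 for Cd40, and none of the ligands passed the bound in either organ.

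**Figure D4:**
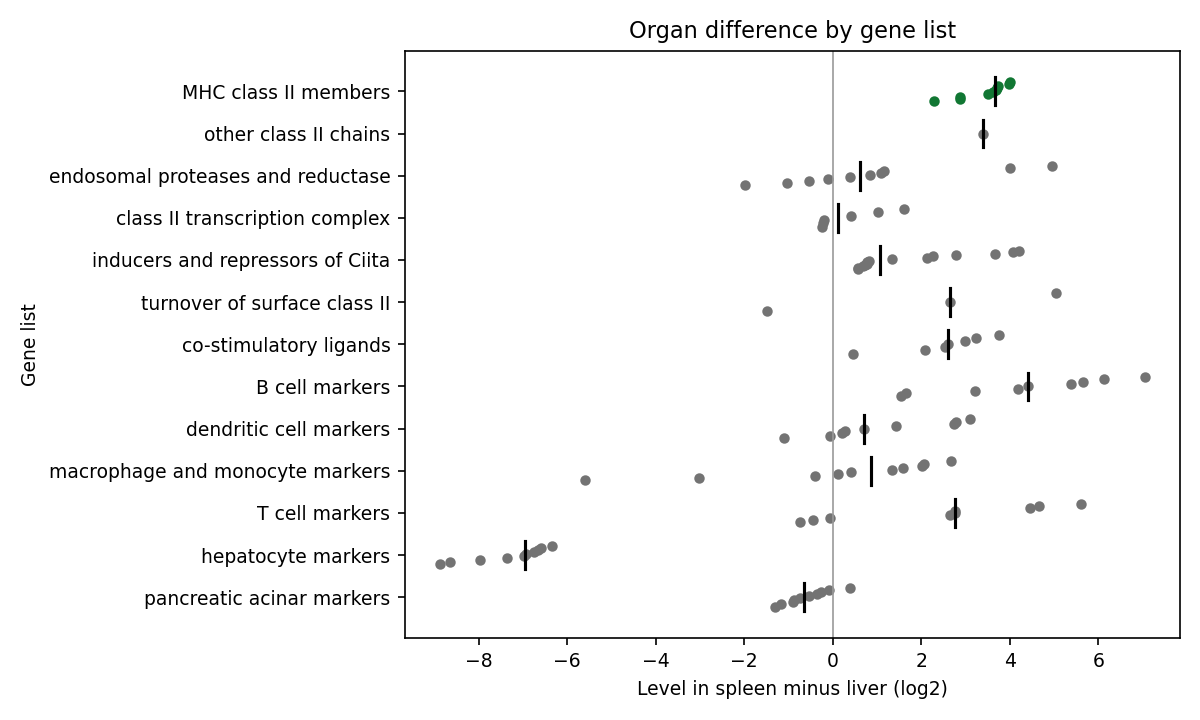
Level in spleen minus liver (log2 units, horizontal axis) of the measurable genes (points) of each list (vertical axis), with the list's median as a bar and the class II members in green; 10 points of genes not above background in 1 organ stand at their measured value. The members' median is 3.66, between the B cell markers at 4.42 and the T cell markers at 2.75, and the class II transcription complex is at 0.11.

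Markers of the cells that can carry class II differed between the organs in unlike ways. Of 9 measurable B cell markers 9 were higher in spleen, with a median of 4.42 (4.34 with the 3 markers not above background in liver set at their bounds), and their summed level (log2) was 15.35 to 15.44 in the spleen channels and 9.95 to 10.00 in the liver channels. Of 9 dendritic cell markers 4 were higher in spleen (median 0.72), and of 10 macrophage markers 5 were higher in spleen and 2 in liver (median 0.87). The liver-side macrophage genes were Clec4f, a Kupffer cell lectin, at least 47.0-fold higher in liver, and Vsig4, at least 7.80-fold higher, each well above background in 0 of 4 spleen channels. The T cell list, whose cells hardly make class II in mice, had 6 of 9 higher in spleen (median 2.75). The part of any of these cells in the members' organ difference was not tested.

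By diet none of these markers passed the bound. In spleen the B cell markers had a median ratio of -0.04, with 5 of 9 below 0 on both arrays, as were 19.8% of all genes. Their summed level was 15.44 in the control pool and 15.35 to 15.39 in the nucleoprotein pool. Cd79b, part of the B cell receptor, was at -0.32 and -0.16 and Cd22 at -0.15 and 0.11. The T cell markers had a median of -0.09, with 9 of 9 means below 0, as were those of 9107 of all 18139 measurable genes. Thy1 was at -0.44 and -0.43 and Cd3g at -0.05 and -0.29. The dendritic cell markers had a median of 0.03, with Itgax, an integrin of dendritic cells, at -0.18 and -0.29 and Clec10a at 0.35 and 0.07. The macrophage markers had a median of -0.02, with Timd4 at 0.02 and -0.36 and Cd14 at 0.01 and 0.32. Their part in the members' spleen ratios was not tested.

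In liver the same lists held little signal of diet. The largest ratios were 0.02 and -0.11 for Ms4a1 and -0.01 and 0.09 for Cd22 among B cell genes, and -0.13 and -0.02 for Bst2 and 0.04 and 0.08 for Batf3 among dendritic cell genes. Among macrophage genes they were -0.09 and 0.89 for Marco and 0.03 and 0.22 for Adgre1, and among T cell genes 0.12 and -0.40 for Cd28 and 0.17 and -0.36 for Lck. Marco thus passed 1.5-fold on array 2 and not on array 1.

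Markers of tissues next to the organs did differ by diet. In the spleen pools 6 of 9 measurable hepatocyte markers were higher on the nucleoprotein diet, where 0.209% of all genes were (median ratio 1.55, for example Alb at 2.11 and 1.77 and Fgg at 1.93 and 2.49), with a summed level (log2) of 10.63 to 10.76 in the control pool and 12.38 to 12.48 in the nucleoprotein pool. Pancreatic acinar markers were lower on that diet for 9 of 10 in spleen, where 0.226% of all genes were (median -1.15, summed level 14.47 to 14.54 against 13.19 to 13.35), and for 10 of 10 in liver, where 0.317% were (median -4.10, 16.60 to 16.61 against 12.20 to 12.41). In liver the hepatocyte markers had a median ratio of -0.01, and 0 of 10 passed the bound. Ttr was well above background in 0 of 4 spleen channels, the other hepatocyte markers in 2 to 4 of them, and the acinar markers in all 4 channels of each organ. The part of these tissues in the members' values was not tested.

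Among genes outside the lists, those whose levels over the 8 channels were most like the members' included Birc5, Tbc1d10c, Pik3ip1 and Bach2. Likeness was the Euclidean distance, after centring each gene on its own mean, to the mean profile of the 8 members well above background in all 8 channels, among 13906 candidate genes. Their distances were 0.18 to 0.19, and their organ differences were 3.43 to 3.58. The 8 members themselves lay at 0.31 (H2-Ab1) to 0.98 (Ctss). These distances are not a like comparison, since the outside genes were picked as the nearest of the candidates and the members were not. In spleen the diet ratios of the named outside genes were -0.07, -0.17, 0.01 and -0.14 in that order.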

How the data were processed

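Total RNA pools of liver and spleen were hybridised to 4 Agilent 4 x 44K mouse arrays on 1 slide. The submitters' processing notes name Agilent Feature Extraction 9.5.3.1 for the scanner files. Per the file headers, they give for each spot mean and background intensity in both channels, processed intensity (background subtracted, dyes normalized), the log10 ratio of red over green, and flags, deposited as scores of 0 or 1. The authors' deposited series value table held linear ratios: its size was red over green within 0.02 log2 units for 99.74% to 99.9% of spots that were well above background in red and green, every value of the array 1 columns was negative, the column medians were -0.92, 0.92, -0.96 and 0.96, and the purpose of the minus sign stayed unknown.

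Background was corrected by normexp (offset 50) and ratios by loess within arrays with control spots at weight 0 (limma 3.58.1, R 4.3.3). Outlier spots (189 to 354 gene spots per array) were left out, spots of a probe were averaged, and ratios were turned to nucleoprotein over control. Channel levels were scaled by Aquantile. Of the probes, 22951 were named by RefSeq accession, 6659 by symbol, 3109 by synonym, and 8455 kept the file's name. A gene was represented by its brightest probe. Of the 5 genes nearest to the members in level profile, 4 are named and 1 is not reported here. All members were named, and of each other list the genes past the diet bound or, without such, its 2 with the largest mean ratio well above background in all 8 channels. Genes named for their organ difference, and examples from the hepatocyte and acinar lists, were chosen after their values were seen. The members and lists were chosen with earlier results of these data known. The calls were also run on simulated ratios, in which an unchanged gene had equal and opposite ratios on the 2 arrays. Such a gene could not pass the bound, so the simulation does not measure false calls. Alternatives left out each array or changed the offset, normalization, probe choice and filter. Precision was limited by the number of arrays.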

Additional observations from a re-analysis of the deposited data

How the results depend on the processing

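The number of members past the diet bound was 0 in both organs under every alternative run, including each single array, the deposited log ratios and the value table, and all 10 members kept their call towards spleen. When either array was left out, the members' median diet ratio was -0.04 to 0.09 in liver, -0.11 to -0.08 in spleen, and their median organ difference was 3.49 to 3.71. With median centring in place of loess the liver median was 0.26, where that of all genes was 0.17. Without scaling between arrays the median organ difference was 4.13, where that of all genes was 0.54; the cause was not tested. No called value changed direction, while diet ratios near 0, none of them called, changed sign between single arrays. In liver, means of both arrays near 0 also changed sign with the processing. With the deposited log ratios H2-Eb1 went from 0.04 to -0.005 and Ciita from -0.03 to 0.004. With the arrays of an organ taken as separate pools and fitted with limma, the Benjamini-Hochberg adjusted p was 1 for the 8 members measurable in liver and the 10 in spleen, the smallest unadjusted values were 0.0553 (H2-Oa) and 0.0639 (H2-Eb1), both in spleen, so 0 members had an unadjusted p under 0.05, and the fit called 21 of all genes in liver and 105 in spleen. The count of all genes past the diet bound was 54 in liver and 79 in spleen, against 288 and 292 in liver and 139 and 114 in spleen on single arrays, 135 and 182 with the deposited log ratios, 135 and 183 with the value table, 60 and 119 at an offset of 10, and 32 and 39 with median centring. No paired analysis was possible because the shared replicate numbers mark the dye orientation and the results come from no test. Signals near background limit H2-Oa and H2-Ob in liver.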
